A study of Mus musculus with 2 samples.

Results

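The clustered protocadherins are cell surface proteins of the cadherin superfamily, encoded in 3 neighbouring gene clusters, alpha, beta and gamma, on mouse chromosome 18. Their genes were taken from the annotation by symbol, as Pcdha1 to Pcdha12 with Pcdhac1 and Pcdhac2, Pcdhb1 to Pcdhb22, and the Pcdhga, Pcdhgb and Pcdhgc series. The rule found 58 gene identifiers under 57 symbols, since 2 identifiers share the symbol Pcdha11, and 43 of the 58 had at least 1 read, among 18497 annotated genes with a read. Long reads, each able to cover a full-length cDNA, were sequenced from hippocampus (a layer of it, per the labels) of female B6CASTF1/J mice aged 2 months, the first-generation hybrid of C57BL/6J and CAST/EiJ. The series has 1 group, hippocampus, of 2 libraries that the labels number as biological replicates 1 and 2, each from 2 µg of RNA, and no allele or treatment sets them apart. Whether the replicates were separate animals is not clear from the labels, so the p-values below measure the difference between these 2 libraries only. The counts do not separate the parental alleles, and each level sums both.

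Each alpha or gamma gene has its own large first exon, the variable exon, which encodes the whole extracellular part, the membrane span and the start of the cytoplasmic tail. Its own promoter drives it, and the variable exon is spliced to small constant exons that all genes of its cluster share and that encode the common cytoplasmic end. Beta genes consist of the large exon alone and lack constant exons. In neurons the alternate genes (the alpha genes numbered without a c, and the gamma A and B genes) are known to be chosen in different combinations by single cells, which gives each cell a surface identity read by homophilic binding, while the C-type genes at the ends of the alpha and gamma clusters are expressed broadly.

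In the GENCODE M21 annotation on mm10, 1-based, the alpha variable exons start with that of Pcdha1 at position 36930184 of chromosome 18 and end with that of Pcdhac2 at 37146530. The 3 alpha constant exons lie at 37156155 to 37156213, 37159265 to 37159353 and 37184946 to 37187657. The beta genes run from 37264938 (Pcdhb1) to 37524479 (Pcdhb22). The gamma variable exons run from 37661793 (Pcdhga1) to 37822134 (Pcdhgc5), and the 3 gamma constant exons lie at 37825021 to 37825079, 37833265 to 37833353 and 37839903 to 37841873. In both clusters the constant exon nearest to the variable exons has 59 bases and the next has 89, while the last has 2712 bases in the alpha and 1971 in the gamma cluster. The coding parts of the variable exons are alike within a type. By pairwise alignment of the annotated sequence, the median identity between 2 genes was 77.2% among the 12 alpha alternates, 74.4% among the 22 beta genes, 70.8% among the 12 gamma A genes and 71.7% among the 7 gamma B genes. The C-type genes stood further apart, with a median of 57.8% among pairs of 1 cluster.

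The libraries held 826596 reads in replicate 1 and 745492 in replicate 2 after removal of spike-ins. Levels are counts per 1000000 of these reads (CPM), so that a single read equals 1.21 CPM in the first and 1.34 CPM in the second. Where no read was seen, the limit given is 3 reads, or 3.63 and 4.02 CPM. A long read stands for 1 cDNA, and levels were not divided by length; how well cDNAs of different lengths were recovered was not measured. Neuronal markers were high, from Gad1 at 285 ± 9.82 CPM to Snap25 at 1651 ± 21.5 CPM (SD, n = 2 here and below), and all 6 markers of hippocampal fields were read in both libraries. Among markers of glia and vessels, all members of the astrocyte, oligodendrocyte, precursor, microglia and endothelium lists had reads in both libraries. Their levels ran from Mog at 6.25 ± 3.14 CPM to Mbp at 1708 ± 153 CPM, the latter above Snap25. The meninges gene Dcn had 41 reads in replicate 1 and 16 in replicate 2. The choroid plexus gene Ttr had 271 reads in replicate 1 and 131 in replicate 2, while the choroid genes Aqp1 and Otx2 had none. In such bulk tissue, fewer cells of a type and less RNA per cell cannot be told apart.

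The members took 458 reads in replicate 1 and 434 in replicate 2, which is 568 ± 19.9 CPM in sum. By the gene to which the deposited tables gave each read, 34 of 58 members were detected in both libraries and 15 had no read in either. The gamma genes held most of this, with 335 and 319 reads (417 ± 16.0 CPM), followed by the beta genes with 73 and 54 reads (80.4 ± 11.2 CPM) and the alpha genes with 50 and 61 reads (71.2 ± 15.1 CPM). The gamma total lay above both others in each library, and the beta and alpha totals changed order between the libraries. Most members were rare: the median level of the 43 members with a read was 3.70 CPM, against 11.6 CPM over all annotated genes with a read, and 1 member exceeded 100 CPM.

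The gene given to a read and the variable exon in its model are separate facts, and for some members they did not match. Each transcript model was therefore compared with the annotated variable exons, and a model was taken to hold one where at least 20 bases overlapped on the same strand. The own variable exon of the gene given was held by 379 of 458 member reads in replicate 1 (82.8%, 95% exact interval 79.0 to 86.1%) and by 344 of 434 in replicate 2 (79.3%, 75.1 to 83.0%). No variable exon was held by 13.3% and 15.9% of the reads, the variable exon of another member by 2.40% and 3.46%, and parts of more than 1 variable exon by 1.53% and 1.38%. The match was complete for beta genes, which are 1 exon, at 83.6% and 81.2% for gamma genes, and at 52.0% and 50.8% for alpha genes. An annotated model carries the annotated exons of its gene, so for its reads the match was fixed in advance. Such models held 375 of the member reads in replicate 1 and 337 in replicate 2, among them all reads given to beta genes.

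**Figure D1:**
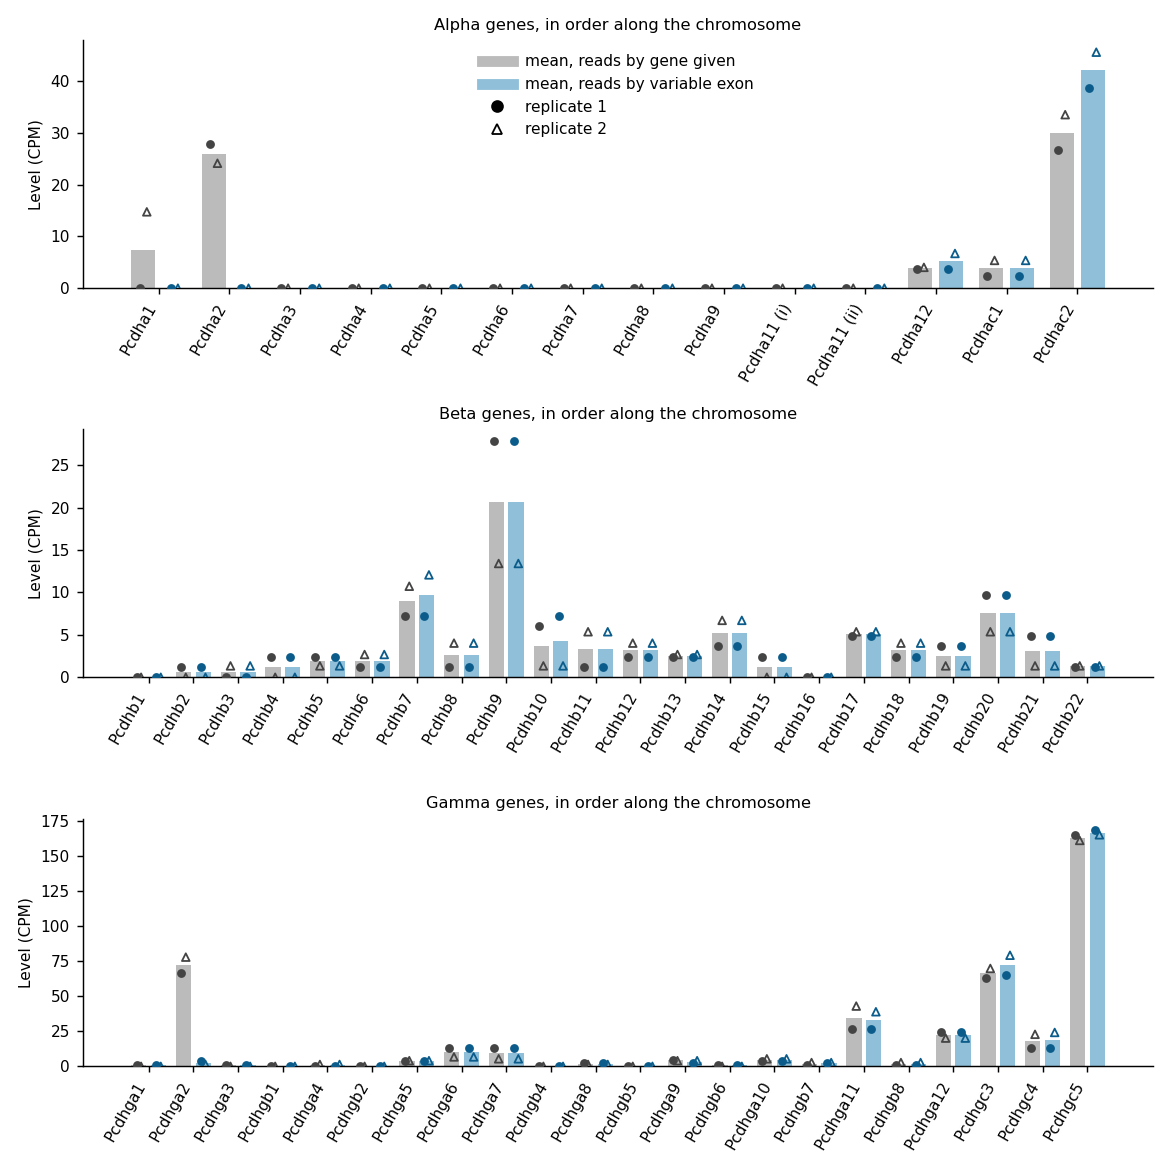
Level of each member in CPM, in chromosome order within the alpha, beta and gamma clusters, with grey bars and dark symbols for reads by the gene given and blue bars and symbols for reads by the variable exon in the model; bars are means of 2 libraries, circles replicate 1 and triangles replicate 2, and (i) and (ii) are the 2 identifiers named Pcdha11. Pcdhgc5 leads by either count, while Pcdha2 and Pcdhga2 are high only by the gene given.

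Pcdhga2 and Pcdha2 show the mismatch most clearly. Pcdhga2, a gamma A gene 153 kb upstream of the constant exons, was given 55 reads in replicate 1 and 58 in replicate 2, the second highest level of all members by the gene given (72.2 ± 7.96 CPM). Of these, 52 and 57 reads held the last gamma constant exon alone, a stretch that all 22 gamma genes share, and 3 and 1 held the Pcdhga2 variable exon, or 2.49 ± 1.62 CPM. Pcdha2 was given 23 and 18 reads (26.0 ± 2.60 CPM), and none held its variable exon alone. Among the Pcdha2 reads, 11 and 12 held the variable exon of another alpha gene, 5 and 6 held parts of 2 variable exons, and 7 and 0 held none. Pcdha1 was given 0 reads in replicate 1 and 11 in replicate 2, and all 11 held the last alpha constant exon alone. In replicate 1 the 6 reads on that exon alone were given to Pcdha2 instead, so the difference of Pcdha1 between the libraries lies in the gene to which such reads were given.

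**Figure D2:**
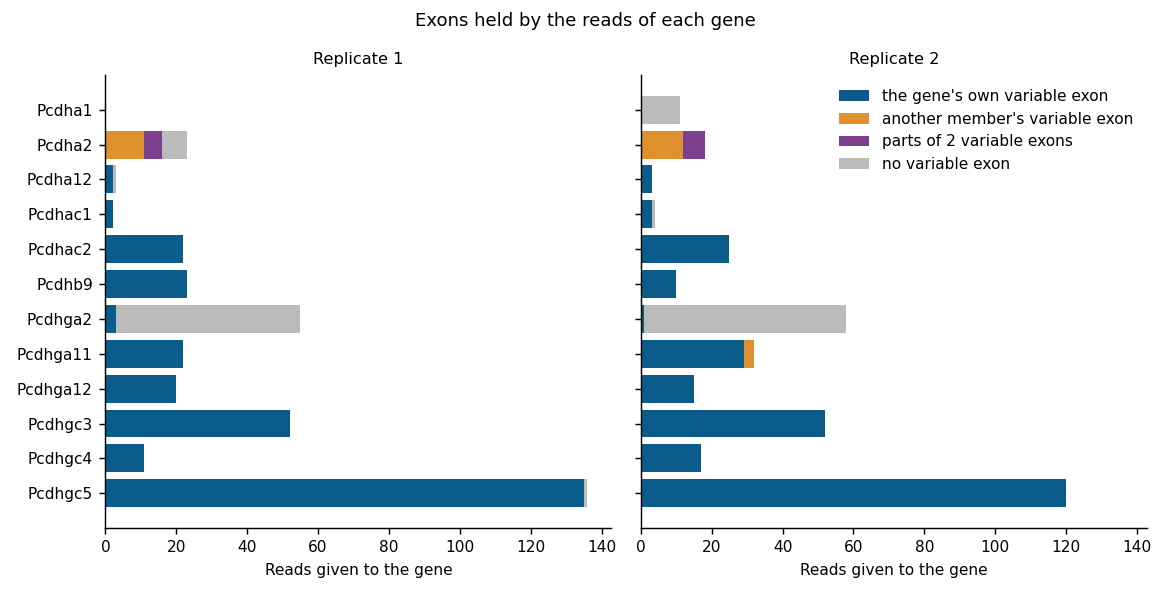
Reads given to each of 12 members in replicate 1 (left) and replicate 2 (right), coloured by what their models hold: the gene's own variable exon, another member's variable exon, parts of 2 variable exons, or no variable exon. Pcdhga2 bars are almost wholly reads without a variable exon, Pcdha2 bars hold no read with its own variable exon alone, and Pcdhgc5 bars are almost wholly its own.

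Counted by the single variable exon in the model, the cluster gave 398 reads in replicate 1 and 368 in replicate 2. The 5 C-type genes took 238 reads in each library (304 ± 22.1 CPM), which is 59.8% (95% exact interval 54.8 to 64.7%) and 64.7% (59.6 to 69.6%) of these reads. The 22 beta genes took 74 and 55 reads, the 12 gamma A genes 79 and 66, the 7 gamma B genes 4 and 4, and the 12 alpha alternates 3 and 5. C-type genes thus made up most of the reads in both the alpha and the gamma cluster, with 34 of 37 and 38 of 43 alpha reads and with 204 of 287 and 200 of 270 gamma reads. By this count 33 members were detected in both libraries and 41 in at least 1.

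Pcdhgc5, the C-type gene closest to the gamma constant exons, gave the highest level of all members. Its variable exon was in 139 reads of replicate 1 and 123 of replicate 2, or 168 and 165 CPM (167 ± 2.24 CPM). That is 48.4% and 45.6% of all gamma reads with 1 variable exon. Its 95% counting intervals, 141 to 199 CPM and 137 to 197 CPM, lay above those of every other member in the same library. Of these reads, 8 and 11 belong to an annotated Pcdhgc5 model in which the variable exon runs unspliced into the constant exon of 59 bases. The only introns of that model are those between the constant exons, which all gamma transcripts share, and where each read of it began is not in the deposited structures. Without that model Pcdhgc5 kept 131 and 112 reads (154 ± 5.83 CPM), or 47.0% and 43.2% of gamma reads.

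Pcdhgc3 followed with 54 and 59 reads by variable exon (72.2 ± 9.77 CPM), and with 52 and 52 by the gene given. It is known to act on Axin1 in the Wnt pathway. Pcdhgc4, which in mice is known to be the gamma isoform that neurons need for survival, had 11 and 18 reads (18.7 ± 7.66 CPM). Both Pcdhgc4 values lay below those of Pcdhgc3 and Pcdhgc5 in the same library, so the order of the gamma C-type genes was the same in each.

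In the alpha cluster 3 of 14 identifiers had a read with their own variable exon alone. Pcdhac2, known from mice as the gene that serotonergic axons need to spread evenly, held 32 of 37 alpha reads in replicate 1 and 34 of 43 in replicate 2 (42.2 ± 4.88 CPM), and 22 and 25 reads by the gene given. The serotonergic genes Tph2, Slc6a4 and Fev had no read in either library. Pcdhac1, the other alpha C-type gene, had 2 and 4 reads (3.89 ± 2.08 CPM). Pcdha12, the alternate nearest to the C-type genes and named here after its values were seen, had 3 and 5 reads (5.17 ± 2.18 CPM). None of the other 11 alpha alternates had a read with its variable exon alone, and the limit of 3 reads allows up to 3.63 and 4.02 CPM for each.

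The reads with 2 variable exons, a set also chosen after the values were seen, come close to a second view of the alpha alternates. In 15 models with 16 reads (10 in replicate 1 and 6 in replicate 2), the front part of 1 variable exon was joined to the rear part of another further downstream and, from there, to the constant exons. All 11 alpha models, with 1 read each, ended in the Pcdha12 variable exon. Their front parts came from 6 genes, which were Pcdha2, Pcdha4, Pcdha5, Pcdha6, Pcdha9 and the Pcdha11 identifier that starts at 37010712. In 8 of these 11 the Pcdha12 part began at the same base, position 37020458 and 229 bases from its coding start. The upstream part stopped at the matching place: in 9 of 11 models the distances from the coding starts differed by at most 3 bases from a gapless join, and the 2 Pcdha9 models differed by 90 bases.

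Most joins lay where the 2 genomic sequences are identical. In the alpha models the run of identical bases across the join had a median of 71 bases and ranged from 1 base (a Pcdha4 model) to 81. All 11 had GT after the upstream part and AG before the downstream part, the bases that bound most introns. Within a run of identical bases the read does not fix where the join lies. The GT and AG there, and the shared start base in Pcdha12, can therefore reflect where the alignment placed the join. The 4 gamma models, with 5 reads in replicate 1 and none in replicate 2, joined Pcdhgb7 to Pcdhgb8 (2 models, identical runs of 24 bases), Pcdhga8 to Pcdhga9 (136 bases) and Pcdhgb2 to Pcdhgb8. The Pcdhgb2 join had an identical run of 0 bases and was the only one of the 15 without GT and AG. Such reads can be spliced RNA or cDNAs joined where sequences match. These sources, and placement by the alignment, were not tested apart. The sequences compared are those of the C57BL/6J annotation, and the CAST/EiJ sequence was not examined. The alpha joined reads numbered 11, beside 8 reads that held the variable exon of an alpha alternate alone, all of Pcdha12. Of these 8, 1 read in each library had a model that began inside the exon, at 37020424 in replicate 1 and 37021562 in replicate 2. The Pcdha12 part of a joined model in the same library began at the same base. None of the 6 genes that gave the front parts had a read with its variable exon alone.

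**Figure D3:**
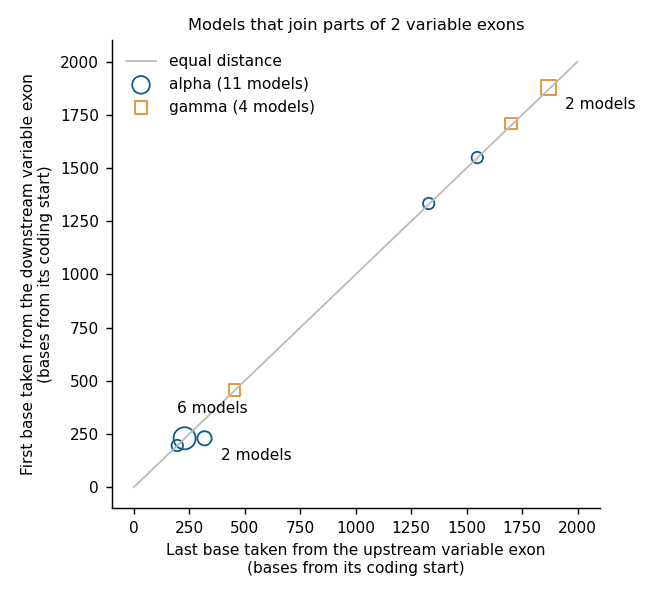
For each model that joins parts of 2 variable exons, the last base taken from the upstream exon (x axis) against the first base taken from the downstream exon (y axis), both in bases from the coding start of their gene; circles are the 11 alpha and squares the 4 gamma models, and larger symbols stand for several models at 1 place. All but the 2 Pcdha9 models lie within 10 bases of the line of equal distance, and 6 alpha models share 1 point at 228 and 229 bases.

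Of the reads given to alpha and gamma genes, 313 of 385 in replicate 1 (81.3%, 95% exact interval 77.0 to 85.1%) and 296 of 380 in replicate 2 (77.9%, 73.4 to 82.0%) showed the splice from a variable exon to the constant exon of 59 bases. The alpha genes are known to have 2 cytoplasmic forms, A and B, which differ by removal of an intron inside the last constant exon. This intron lies at 37185048 to 37185475 and is 428 bases long. Among alpha reads spliced into the last constant exon, it was removed in 10 of 43 in replicate 1 (23.3%, 11.8 to 38.6%) and 14 of 49 in replicate 2 (28.6%, 16.6 to 43.3%). The 6 and 11 reads on that exon alone, whose models keep the intron, are outside this count. Of the Pcdhac2 reads, 9 of 32 and 9 of 34 lacked the intron, and all 18 of these had been given to Pcdha2. Of the other alpha reads in the count, 1 of 11 and 5 of 15 lacked it, and 1 of the 11 in replicate 1 held no variable exon. The intervals of both sets overlapped in each library, and a difference between them was not detectable at this depth.

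Within Pcdhgc5, 21 of 139 reads (15.1%, 9.60 to 22.2%) and 16 of 123 (13.0%, 7.62 to 20.3%) left the variable exon at a donor inside it. Most used position 37819712, the end of the first exon of an annotated model, with 14 reads in replicate 1 and 12 in replicate 2. That donor lies 38 bases into the coding sequence, skips 2422 bases of the variable exon, among them nearly all that encodes the extracellular part, and is not followed by GT in the reference. A second annotated donor at 37819698, which is followed by GT, had 3 and 2 reads. Pcdhgc3 had a donor of the same kind at 37806577, 30 bases into its coding sequence and followed by GT, with 2 of 54 and 6 of 59 reads. All 8 of these reads had been given to Gm42416, another gene of the annotation over the gamma cluster. No read of Pcdhga11 (22 and 29 reads) or Pcdhga12 (19 and 15 reads) used a donor inside the variable exon, and Pcdhac2 had 1 of 32 and 0 of 34. The 95% exact intervals of these shares for Pcdhga11 and Pcdhgc5 overlapped in both libraries, as did those for Pcdhgc3 and Pcdhgc5. Over all alpha and gamma genes other than the gamma C-type genes, the share was 2 of 118 reads in replicate 1 (0.206 to 5.99%). In replicate 2 it was 1 of 110 (0.0230 to 4.96%). Both of these intervals lay below that of Pcdhgc5 in the same library.

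The gamma A genes were led by the pair nearest to the C-type genes. Pcdhga11 had 22 reads in replicate 1 and 29 in replicate 2 by variable exon (32.8 ± 8.69 CPM), and Pcdhga12 had 20 and 15 (22.2 ± 2.88 CPM). Their counting intervals overlapped in both libraries. Every one of the 12 gamma A genes had a read, whereas 3 of the 7 gamma B genes did, Pcdhgb6, Pcdhgb7 and Pcdhgb8, and Pcdhgb1, Pcdhgb2, Pcdhgb4 and Pcdhgb5 had none of their own. Over the 22 gamma genes the reads by variable exon ran against the distance to the constant exons, with a Spearman's rho of -0.57 in replicate 1 and -0.70 in replicate 2. Over the 12 gamma A genes alone rho was -0.64 and -0.81. The genes share 1 tissue and the 2 libraries, and many counts are tied at low values, so these are descriptions.

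Among the beta genes, 16 of 22 were detected in both libraries and 2 in neither, Pcdhb1 and Pcdhb16. Pcdhb9 led with 23 reads in replicate 1 and 10 in replicate 2 (20.6 ± 10.2 CPM). The 19 other beta genes with a read had at most 14 reads in both libraries together, and 14 of them had 5 or fewer. Pcdhb9 is 89.3% identical to Pcdhb7 in coding sequence, and the nearest relatives in the whole set are Pcdhb6 and Pcdhb8 with 89.7%. The sources used here do not say how the counting treated reads of such close genes. Pcdhb1 stood furthest from the rest, with 61.2% identity to its nearest relative, Pcdhb2.

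The annotation gives other genes over the same exons, and few cluster reads were given to them. Gm42416 took 10 reads in each library, and 18 of the 20 held a member's variable exon. Gm38182 took 10 and 9 reads, which began in an exon of its own just upstream of the gamma constant exons and were spliced to them. No read began in the alpha cluster and ended in the gamma constant exons. On the opposite strand, models over a variable exon held 6 reads in replicate 1 and 3 in replicate 2, against 398 and 368 reads with a single variable exon in sense. A single-exon antisense model between the gamma constant exons of 59 and 89 bases had 10 and 8 reads and has no gene in the annotation. It spanned 37830603 to 37831684 in replicate 1 and 37830603 to 37831693 in replicate 2.

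The reads of members fell more often into annotated structures than those of all annotated genes. Annotated models held 81.9% and 77.6% of member reads, against 65.8% and 65.2% for all annotated genes, and models of TALON's genomic class held 0.218% and 0.461% against 10.5% and 10.3%. A further 5 reads in replicate 1 and 3 in replicate 2 over the cluster, all of the genomic class, were given to Gm37388, another gene of the annotation. Member reads lay in long models: 70.3% and 71.0% of them in models of at least 4000 bases, against 17.0% and 17.3% of all reads. The share was 82.0% and 78.7% for alpha genes and 78.5% and 75.5% for gamma genes, but 24.7% and 35.2% for the single-exon beta genes. For annotated structures this is the length of the model and not of the read. The part of model length and exon number in these shares was not tested.

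The 2 libraries were set against each other by a two-sided exact binomial test per gene on genes with at least 20 reads together. With the Benjamini-Hochberg adjusted threshold of 0.05 and a 2-fold limit it called 0.309% of all 9062 genes tested, 28 in number. Of the 9 members tested none was called, and 0 of 9 had an unadjusted p under 0.05, against 672 of the 9062 genes (7.42%). The test used reads by the gene given, so for Pcdha2 and Pcdhga2 it compared mostly reads without their own variable exon. The smallest exact p among members was 0.0553, for Pcdhb9 with 23 reads in replicate 1 and 10 in replicate 2, a log2 ratio of replicate 1 over replicate 2 of 1.01 and an adjusted p of 0.685. Pcdhga11 had a log2 ratio of -0.68 (exact p = 0.101, adjusted p = 0.784). The remaining 7 members lay between -0.75 for Pcdhgc4 and 0.25 for Pcdhga12.

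**Figure D4:**
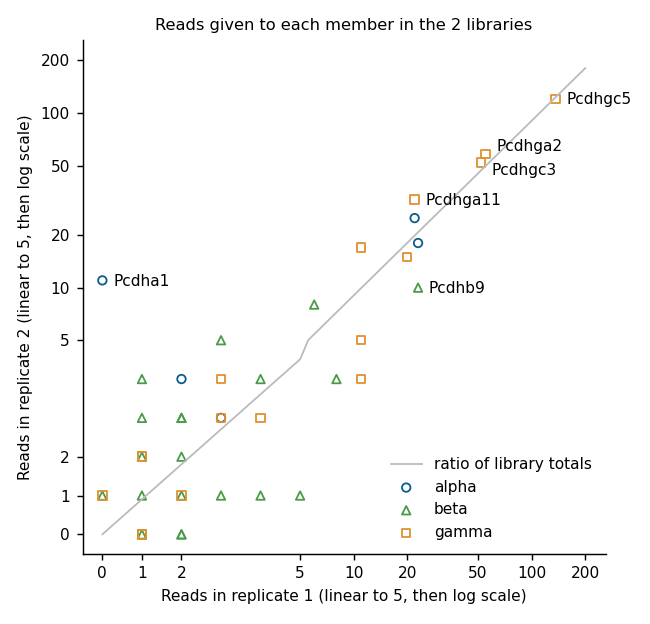
Reads given to each member with a read, in replicate 1 (x axis) and replicate 2 (y axis), linear up to 5 reads and on a log scale above; circles are alpha, triangles beta and squares gamma genes, and the line is the ratio of the library totals. Pcdhgc5 lies near the line at 136 and 120 reads, Pcdhb9 lies furthest below it among tested members, and Pcdha1 has reads in replicate 2 only.

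Genes that act with the clustered protocadherins were read in the same libraries, and bulk tissue does not show whether the same cells expressed both. Of the 18497 annotated genes with a read, 14787 were read in both libraries. Of 24 partners and processing enzymes, 23 were read in both libraries, led by the focal adhesion kinase relative Ptk2b (783 ± 8.53 CPM) and the WAVE complex genes Nckap1 (412 ± 25.6 CPM), Wasf1 (387 ± 21.9 CPM) and Cyfip2 (345 ± 5.45 CPM). Clustered protocadherins are known to inhibit this kinase family and to bind the WAVE complex, which builds branched actin. Ret had no read, and 1 partner was called between the libraries, Nlgn2, with 99 reads in replicate 1 and 1 in replicate 2. Of 19 genes for promoter choice and chromatin, 17 were read in both libraries. They were led by the histone methyltransferase Ehmt2 (73.4 ± 6.25 CPM), its partner Wiz (48.0 ± 8.0 CPM), the cohesin subunit Rad21 (44.5 ± 0.35 CPM) and the methyltransferase Setdb1 (43.2 ± 2.25 CPM). Ctcf, whose protein with cohesin is known to fold cluster promoters to their enhancers and which lies outside the 4 leading genes, had 25.9 ± 4.41 CPM.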

How the data were processed

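The deposited tables, 1 a library, give counts of reads for each transcript model without normalization, beside other deposited values (exon number, length and exon positions of each model). Per the text files deposited with them, the alignments were to mm10 with GENCODE M21; per the file headers, TALON made the structures. Aligner, platform and versions were not given in the sources used here. Counts were summed by gene identifier and divided by non-spike-in reads. Model exons were compared with the annotated exons of the same version. Intervals are exact Clopper-Pearson intervals at 95%; without molecular identifiers they and the limit for a count of 0 cover counting error only. The binomial test, checked on simulated data, takes reads as independent, so its p-values may be too small. Log2 ratios have 0.5 reads added. Alternatives changed the classes, overlap, read minimum, fold and scaling (TMM in edgeR 4.0.16, DESeq2 1.42.0), and left out each replicate. Members named are those with at least 20 reads together, the C-type genes, and up to 4 leading genes and all members with no read of other lists; others were named after their values were seen. Members and lists were chosen with earlier results of these data known. Python 3.11.15, pandas 2.3.3, scipy 1.17.1 and Biopython 1.88 were used.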

Additional observations from a re-analysis of the deposited data

How the results depend on the processing

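Leaving out each replicate returns the value of the other, which with 2 libraries always lies within the SD, so those 32 values say nothing of stability. Of the other 76 alternative values, 61 moved by less than the SD of the 2 libraries or, for counts, stayed within 1.5 times. Counting reads by variable exon and leaving out 1 Pcdhgc5 model were both chosen after seeing the data. Reads counted by variable exon gave 51.2 CPM for the alpha genes and 355 CPM for the gamma genes, and 342 CPM for gamma without the Pcdhgc5 model spliced only between constant exons. Full-splice classes alone gave 344 CPM for gamma, since they drop the reads on 1 constant exon. Class alternatives kept the total of all reads. Requiring 5 reads in each library left 11 members detected by the gene given and 9 by variable exon. The share of reads whose model held the gene's own variable exon was 77.6% when the model had to overlap 50% of that exon. It was 75.1% when the model exon had to end at the annotated last base. Both rules concern the model and not the bases that each read covered. No member was called between the libraries at a minimum of 10 reads, with no read minimum, with no fold limit, without genomic models or with TMM scaling, the 5 alternatives run for that test. The count over all genes was 28 in the main test, 61 without genomic models and 52 with no fold limit. TMM scaling moved none of the 3 cluster totals and 10 member levels by more than its SD, and DESeq2 scaling, run for the totals, moved none of them. No paired analysis was possible because the series has 1 group. Members with few reads are limited by depth, and groups of 2 cannot show an outlying sample.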

Other observations

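The protocadherins outside the clusters, single genes with their own promoters, can be set beside the cluster. Of 12 such genes 11 were read in both libraries, and Pcdh12, known from endothelium, had none. Pcdh8 had 157 CPM in replicate 1 and 195 CPM in replicate 2 (176 ± 26.3 CPM), and Pcdh20 had 156 and 190 CPM (173 ± 24.3 CPM). Both are near Pcdhgc5, which had 168 and 165 CPM by its variable exon. Pcdh19, mutated in an epilepsy of girls, had 59.9 ± 2.57 CPM and Pcdh1 had 36.7 ± 4.52 CPM. In sum the 12 genes had 479 and 563 CPM, and the 58 clustered members had 554 and 582 CPM by the gene given.

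Of 34 protein-coding genes within 500 kb of the cluster or inside it, 27 were read in both libraries, led by Rnf14 (426 ± 13.9 CPM), Ndufa2 (239 ± 13.2 CPM), Slc35a4 (159 ± 19.7 CPM) and Rell2 (130 ± 9.40 CPM). E230025N22Rik, Eif4ebp3, Gm37013, Pcdh12, Slc25a2 and Slc4a9 had no read. Taf7, which lies inside the cluster on the opposite strand, had 6 reads in replicate 1 and 12 in replicate 2.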
